A study of Homo sapiens with 8 samples.

Results

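The transcriptome of control PC3 cells was described from the 4 samples labelled shScramble, of 8 samples in the series. The other 4 carry a hairpin against IER5L and enter no value given here. PC3 is an established human cell line from a bone metastasis of prostate adenocarcinoma that grows without androgen. The control cells were transduced with a lentiviral vector carrying a scrambled short hairpin and selected with puromycin, so every level below is that of transduced, drug-selected cells and not of untouched PC3 cells. The cells were grown in DMEM with 10% serum. The labels number the samples as biological replicates. The study's methods report seeding 4 plates of control or silenced cells per experiment. They do not say which plate or experiment each sample came from. How much of the spread between samples is technical thus cannot be told, and it may be largely technical. Samples are named replicates 1 to 4 after their labels.

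Levels were expressed as transcripts per 1000000 (TPM): the count of each gene was divided by its exon length and the results of a sample were scaled to that sum, so that levels can be set side by side between genes. A gene was taken as a member of the baseline transcriptome when its mean TPM over the 4 samples was at least 1. Of the 19629 protein-coding genes in the table, 11883 were members (60.5%). Values are the mean ± SD over 4 samples (n = 4) unless single samples are given, always in the order of replicates 1 to 4, and a lone number in parentheses after a gene is its mean TPM.

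A human cell line usually spends a large share of its mRNA on a small set of housekeeping genes, which encode ribosomal proteins, glycolytic enzymes, chaperones, histones and the cytoskeleton. Transcription factors and surface receptors define the identity of a cell at much lower mRNA levels. PC3 cells are known to carry a deletion of CTNNA1 and to hold epithelial and mesenchymal traits together.

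To show where the most abundant messages start, the sequence around the transcription start of 7 genes of the 2 groups that head the list, histones and ribosomal proteins, and of the 2 highest genes is given from RefSeq (GRCh38.p14), 5′ to 3′ on the gene's strand, from 80 bases before the start to 20 bases after it. ATP5F1B and SLC25A5 had no entry in the promoter table used. Capitals mark the TATA box letters TATAAA, the CCAAT box, the GC box core GGGCGG and the E-box core CACGTG on either strand, and a run of at least 6 C or T bases on the gene's strand within 10 bases of the start.
TMSB10, chr2:84905576-84905675, + strand: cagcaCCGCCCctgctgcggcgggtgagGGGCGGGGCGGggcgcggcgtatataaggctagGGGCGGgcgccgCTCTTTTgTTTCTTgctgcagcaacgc
ENO1, chr1:8878667-8878766, - strand: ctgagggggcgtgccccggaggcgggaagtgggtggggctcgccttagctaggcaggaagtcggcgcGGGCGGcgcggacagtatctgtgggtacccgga
H1-2, chr6:26056451-26056550, - strand: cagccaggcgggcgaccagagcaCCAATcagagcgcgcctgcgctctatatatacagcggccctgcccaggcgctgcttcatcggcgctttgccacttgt
H2BC12, chr6:27146839-27146938, - strand: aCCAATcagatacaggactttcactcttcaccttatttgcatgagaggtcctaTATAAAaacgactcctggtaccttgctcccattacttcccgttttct
H4C2, chr6:26027264-26027363, - strand: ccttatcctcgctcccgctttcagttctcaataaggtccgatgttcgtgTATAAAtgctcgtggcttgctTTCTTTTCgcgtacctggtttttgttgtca
RPS12, chr6:132814489-132814588, + strand: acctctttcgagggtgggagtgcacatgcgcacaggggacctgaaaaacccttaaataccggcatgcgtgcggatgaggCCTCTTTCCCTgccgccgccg
RPL7A, chr9:133348138-133348237, + strand: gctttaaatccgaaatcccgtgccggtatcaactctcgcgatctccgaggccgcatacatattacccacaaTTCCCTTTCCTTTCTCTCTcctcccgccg

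The letters differed between the groups. Over the full window of 300 bases (250 before the start and 50 after), 32 of the 46 histone members with an entry held TATAAA on either strand (69.6%) and 38 held CCAAT (82.6%). Among all 15251 protein-coding genes with an entry these shares were 9.56% and 36.6%. CCAAT was not particular to histones, as 18 of the 23 proliferation genes with an entry held it as well (78.3%). Of 67 ribosomal protein members with an entry, 50 had the run of C or T at the start (74.6%), against 21.6% of all genes. The run was also in 39.1% of the histone windows. Among the windows of genes from 1000 TPM, a band that holds 26 ribosomal protein genes, its share was 42.2%. GGGCGG, the core of the GC box, was in 23.9% of the histone windows, 53.7% of the ribosomal protein windows and 59.3% of all windows. CACGTG, the core E-box, was in 8.90% of all windows and in 26.1% of those of 23 proliferation genes. By level, TATAAA was in 16% of the windows of genes under a mean TPM of 1, in 4.79% from 10 to 100 TPM and in 27.7% of the 83 windows of genes from 1000 TPM, a band that holds 14 histone genes. GGGCGG was in 39.7% of the windows of genes under 1 TPM and in 66.7%, 72.5%, 70.1% and 62.7% of those in the bands from 1, 10, 100 and 1000 TPM. The letters are matches in a fixed window and were not tested as sites.

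Count depth was even. The 4 libraries held 21512128, 23152058, 24662190 and 22355481 counts on genes, of which 97.7% to 97.8% lay on protein-coding genes, and 11785, 11912, 11899 and 11856 protein-coding genes reached 1 TPM in the single samples. Counts cover sampling error only, and reads of a pair were counted singly. Between the counts of each pair of replicates the chi-square per degree of freedom was 2.36 (replicates 2 and 3) to 4.35 (replicates 1 and 3). Reads of a pair are not independent counts and raise this value by themselves, so it cannot show how far the replicates differ beyond sampling noise. No library was a copy of another, and each was counted as its own sample. Across members, log2 TPM correlated between replicates at a Pearson r of 0.989 to 0.993. These are correlations across genes, which are not independent replicates.

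Levels of members span more than 3 orders of magnitude. Between 1 and 10 TPM lay 3678 members, 6091 lay between 10 and 100, 2012 between 100 and 1000, and 102 at 1000 or above. The median member stood at 24.2 TPM. The 102 genes of the highest band held 17.1% ± 0.173 of all TPM, more than 10 times the 1.59% ± 0.0522 held by the 3678 genes of the lowest band. The largest share, 49.3% ± 0.168, was held by the 2012 genes between 100 and 1000 TPM. The 6091 genes between 10 and 100 TPM held 23.5% ± 0.168. The 10, 100, 500 and 1000 most abundant genes held 3.37% ± 0.0217, 16.9% ± 0.168, 38.3% ± 0.215 and 51.1% ± 0.203 of TPM. In single samples the share of the top 100 was 17.2%, 16.9%, 16.9% and 16.8%. At the other end, 3521 protein-coding genes had no count in any sample.

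**Figure D1:**
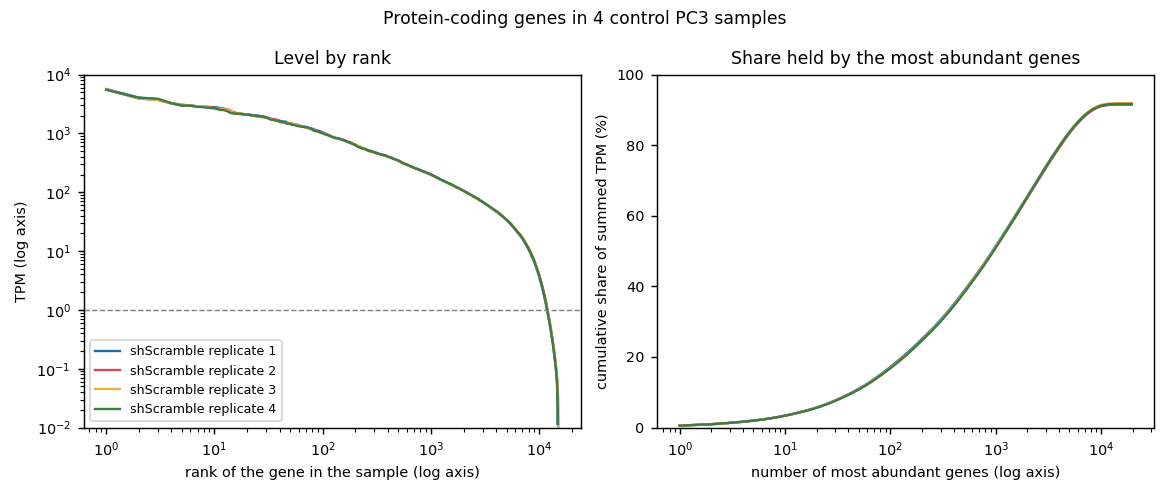
Left, TPM of each protein-coding gene against its rank in the same sample, both on log axes, with a line per shScramble sample and a dashed line at 1 TPM. Right, the cumulative share of summed TPM by number of most abundant genes (log axis). The 4 lines lie on each other, the top 100 genes hold 16.9% on average, and the curve ends near 91.7%, the share of all protein-coding genes.

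Protein-coding genes held 91.7% ± 0.174 of all TPM. Long noncoding RNAs held 2.59% ± 0.0608, snoRNAs 1.12% ± 0.0471 and processed pseudogenes 1.09% ± 0.0393. The 37 genes of the mitochondrial genome, which the table lists under the name chrMT, had 0 counts in all 4 samples, so the mitochondrially encoded subunits of the respiratory chain are not part of what follows.

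The 20 most abundant protein-coding genes were mostly genes of actin binding, glycolysis, chromatin, translation and mitochondrial energy supply. TMSB10, a small peptide that binds actin monomers (chr2:84905625-84906675, hg38), was the highest gene in every sample at 5671, 5563, 5611 and 5507 TPM. ENO1, the glycolytic enolase (chr1:8861002-8879249), followed at 4057, 3908, 3944 and 4038 TPM. H1-2, a linker histone that binds DNA between nucleosomes (chr6:26055787-26056428), stood at 3803, 3713, 3709.7 and 3884 TPM. The 4 values of TMSB10 lie above all values of ENO1, and those of ENO1 lie above all values of H1-2.

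ATP5F1B, the catalytic beta subunit of mitochondrial ATP synthase, came next at 3247, 3268, 3199.96 and 3240.4 TPM. From there the order is tight: of the 19 neighbouring pairs in the top 20, only 5 had values that did not overlap between the 4 samples. ACTG1, cytoplasmic gamma actin, stood at 2805, 2975, 3048 and 2785 TPM and EEF1A1, which brings aminoacyl-tRNA to the ribosome, at 2964, 2815, 2739.7 and 2949.5 TPM, and the values of these genes overlapped.

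FTL, the ferritin light chain that stores iron, was at 2779, 2830.2, 2895 and 2822 TPM. H2BC12, a core histone of the H2B family, was at 2732, 3077, 2911 and 2500.2 TPM, with replicate 2 highest and replicate 4 lowest. HSPA8, the constitutive HSP70 chaperone, was at 2888, 2718, 2612 and 2699.6 TPM. Further members of the top 20 were RPS12 (2682), GAPDH (2509), RPL13A (2496), H1-4 (2422), YBX1 (2223), RPL8 (2148), SLC25A5 (2137), H1-3 (2119.8), RPL7A (2099) and LGALS1 (2082). YBX1 is an RNA- and DNA-binding cold shock protein, SLC25A5 exchanges ADP for ATP across the mitochondrial membrane, and LGALS1 is a secreted galactose-binding lectin. GAPDH, a common reference gene, had values of 2517, 2486, 2508 and 2524 TPM, a coefficient of variation (CV, SD over mean) of 0.656%.

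The order depends on the length used. With the length of the canonical GENCODE v44 transcript in place of the union of all exons, 8 of these 20 genes stayed among the 20 highest, and 4731 of the 11883 members had a mean TPM that differed by over 1.5 times. ENO1 then stood at 5139 TPM, TMSB10 at 3487, H1-2 at 1924 and H2BC12 at 1252. Where a gene is said below to lead a list, this is its place with the union of exons. Of the 75 lists, 15 had another leading gene with canonical lengths.

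Of the 102 genes at 1000 TPM or above, 26 were cytosolic ribosomal proteins, 14 replication-dependent histones, 8 chaperones, 6 glycolytic enzymes, 5 redox enzymes and 4 subunits of the respiratory chain or ATP synthase. In no class list were 21 of them, among them NPM1, the nucleolar protein nucleophosmin, at 2182, 2044, 2005 and 2074 TPM, and UCHL1, a deubiquitinase, at 1147, 1136, 1111 and 1125 TPM. These 2 genes were chosen after their values were seen.

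Translation was the largest class. The cytosolic ribosomal proteins, with 84 of the 86 listed genes as members, summed to 69078, 67879, 67537 and 67486 TPM in replicates 1 to 4, or 6.80% ± 0.0743 of all TPM. With the canonical lengths the same class held 12.5%. Their median was 571 TPM, against 24.2 for all members. Below 1 TPM were RPL3L (0.451), the striated muscle paralogue of RPL3, and RPL10L (0.109), the testis paralogue of RPL10. Ribosomal proteins have many processed pseudogenes whose reads cannot be told apart with certainty, and the count of single members is uncertain for that reason. One such pseudogene, RPS2P5, was listed at 592 TPM beside RPS2 at 1414 ± 101.

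All 78 mitochondrial ribosomal proteins were members, with a summed level of 11838 ± 129 TPM led by MRPS16 (672), MRPS35 (500.2) and MRPL51 (439). The initiation factors had 43 of 46 genes as members and were led by EIF3I, a subunit of the eIF3 scaffold, at 1254, 1273, 1242 and 1331 TPM. EIF2S2 and EIF2S3, subunits of eIF2 that carries the initiator tRNA, stood at 809 ± 4.47 and 748 ± 18.2 TPM. Among elongation factors, EEF2, which moves the ribosome along the mRNA, was at 1409.8 ± 147 TPM and EEF1B2 at 1261 ± 39. EEF1A2, the paralogue of EEF1A1 that is normally restricted to muscle and neurons, stood at 136, 157, 166 and 123 TPM. EEF1G was listed at 0 in all samples, but all but 2 of its 2716 exon bases are shared with another gene of the table and reads in shared exons were not assigned, so its 0 says nothing about its level.

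Histones were the next class by level with the union of exons. Replication-dependent histone genes, which are expressed in S phase from gene clusters, had 50 of 67 genes as members and summed to 38217, 40524, 40198 and 36169 TPM, or 3.88% ± 0.202 of all TPM. Replicate 4 was the lowest sample for 32 of the 50 members and replicate 2 the highest for 22, or 64% and 44%, against 19.4% and 22.1% of all members. The linker histone H1-2 led (3778), followed by the core histone H2BC12 (2805), the linker histones H1-4 (2422) and H1-3 (2119.8) and the core histones H4C2 (1951), H2BC17 (1775), H4C3 (1766) and H3C7 (1751). H4C2 stood at 1967, 1859, 1977 and 2003 TPM. With canonical lengths the class held 2.95%, under the 3.46% of the respiratory chain and ATP synthase. A pair of gene identifiers of 411 bases that GENCODE v44 no longer lists, at chr6:26031650-26032060 and chr6:26045411-26045821 in hg38, stood at 2699 ± 198 and 2009 ± 178 TPM. They lie within the RefSeq genes H3C2 and H3C3 and are not in the sum. Most replication-dependent histone mRNAs end in a stem-loop and carry no poly(A) tail. The labels name an mRNA kit and the study's methods a total RNA kit, and which of them set these levels was not tested.

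The 10 replacement histones, most of which carry a tail and are made outside S phase as well, were all members and summed to 2736 ± 36.5 TPM. Among them, H2AZ1 stood at 673 ± 48.2 and H2AZ2 at 213 ± 8.75 TPM. Of 30 proliferation genes, all were members, with a median of 219.8 TPM and a sum that varied little, at 6838, 6859, 6871 and 6804 TPM. PCNA, the sliding clamp of DNA polymerase, stood at 743, 726, 726 and 719 TPM, followed by CCNB1 (478), TOP2A (477), BIRC5 (427) and MCM7 (402), which encode cyclin B1, topoisomerase II alpha, survivin and a subunit of the replicative helicase.

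Energy metabolism held the third largest sum with the union of exons and the second largest, above the histones, with canonical lengths. Nuclear-encoded subunits of the respiratory chain and ATP synthase had 81 of 90 genes as members and 27986, 27902, 27809 and 27719 TPM. After ATP5F1B came NDUFS5 of complex I at 1732 ± 50.4, CYC1 of complex III at 1555 ± 45, NDUFA1 at 1025 ± 44.1 and COX7C of complex IV at 969.6 ± 31.5 TPM. Those below 1 TPM included the tissue-restricted isoforms COX7A1 (0.478) and COX6B2 (0.135), and COX4I2, COX6A2, COX8C and COX7B2 were listed at 0.

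Glycolysis enzymes had 18 of 25 genes as members and summed to 13409.8 ± 233 TPM. PGK1 stood at 1606, 1487, 1527 and 1584 TPM. The lactate dehydrogenase subunits LDHB and LDHA stood close together at 1488, 1414, 1389 and 1455 and 1380.3, 1227, 1251 and 1325 TPM, and LDHB was higher in each sample. TPI1 was at 1231 ± 50.6 and ALDOA at 387 ± 23.1 TPM. Of the hexokinases, which start the pathway, HK1 stood at 159, 161, 163 and 161 and HK2 at 111, 101, 111 and 115 TPM, and HK3 was listed at 0. PKM, pyruvate kinase, was listed at only 52.1, 52.1, 54.4 and 57.6 TPM although none of its exon bases is shared with another gene. The germ cell isoforms PGK2 and LDHC stood at 0 and 0.295.

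Protein folding and turnover were expressed through whole complexes. Chaperones had 30 of 32 genes as members and a sum of 23646 ± 499 TPM, led after HSPA8 by the cytosolic HSP90 alpha HSP90AA1 at 2069.7, 1953, 1952 and 2095 TPM and the mitochondrial HSPD1 at 1742, 1715, 1651 and 1704 TPM. The subunits of the CCT chaperonin, which folds actin and tubulin, were led by CCT3 (1446), CCT6A (1112), CCT4 (857) and CCT2 (844). The near-identical stress-inducible pair HSPA1A and HSPA1B was listed at 0.105 and 0. Proteasome subunits had 38 of 40 genes as members and a sum of 11891 ± 184 TPM, led by PSMA7 at 1333, 1294, 1294 and 1289.8 TPM and by the catalytic subunit PSMB5 at 1211, 1168, 1192 and 1228 TPM. The testis and thymus subunits PSMA8 and PSMB11 had no count.

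Redox and xenobiotic enzymes had 31 of 35 genes as members and 13809 ± 70.1 TPM. PRDX1 and PRDX6, peroxiredoxins that reduce peroxides, stood at 2090.2, 1964, 1845 and 1995 and 1957, 1963, 1946 and 1959 TPM. TXNRD1, thioredoxin reductase and a known NRF2 target, was at 1928, 1865, 1815 and 1922 TPM and its substrate TXN at 1206 ± 36.9. GSTP1, the glutathione transferase that is often silenced in prostate cancer, stood at 375 ± 25.3 TPM. Iron handling showed FTL and the transferrin receptor TFRC (1228 ± 49.9) at the top. FTH1, the ferritin heavy chain, was listed at 65.1 ± 6.42 TPM, but 62.4% of its exon bases are shared with another gene. With only unshared bases in the length it stood at 164 TPM.

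The cytoskeleton combined actin and keratin messages. Actin cytoskeleton genes had 36 of 42 genes as members and 17323 ± 198 TPM. After TMSB10 and ACTG1 came TMSB4X at 1694, 1614, 1565 and 1662 and TAGLN2 at 823, 835, 874 and 891 TPM, while ACTB, beta actin, was listed at 512, 519.6, 531 and 504 TPM, under each value of ACTG1. The smooth and skeletal muscle genes ACTA2, TAGLN, MYL9 and ACTA1 stood at 0.785, 0.481, 0.123 and 0.0531 TPM. Tubulins were led by TUBB4B at 1979, 2119, 2241 and 1954 TPM and TUBA1B at 795, 783, 786 and 831 TPM. Of the annexins, which bind membranes in a calcium-dependent way, ANXA7 (1795), ANXA2 (1256), ANXA5 (1174), ANXA1 (664) and ANXA10 (575) were highest. With canonical lengths ANXA2 came first at 4136 TPM and ANXA7 stood at 1219.5. S100A4, a small calcium-binding protein linked to motility, stood at 1571, 1387, 1476 and 1484 TPM and S100A6 at 839, 902, 898 and 880.2.

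**Figure D2:**
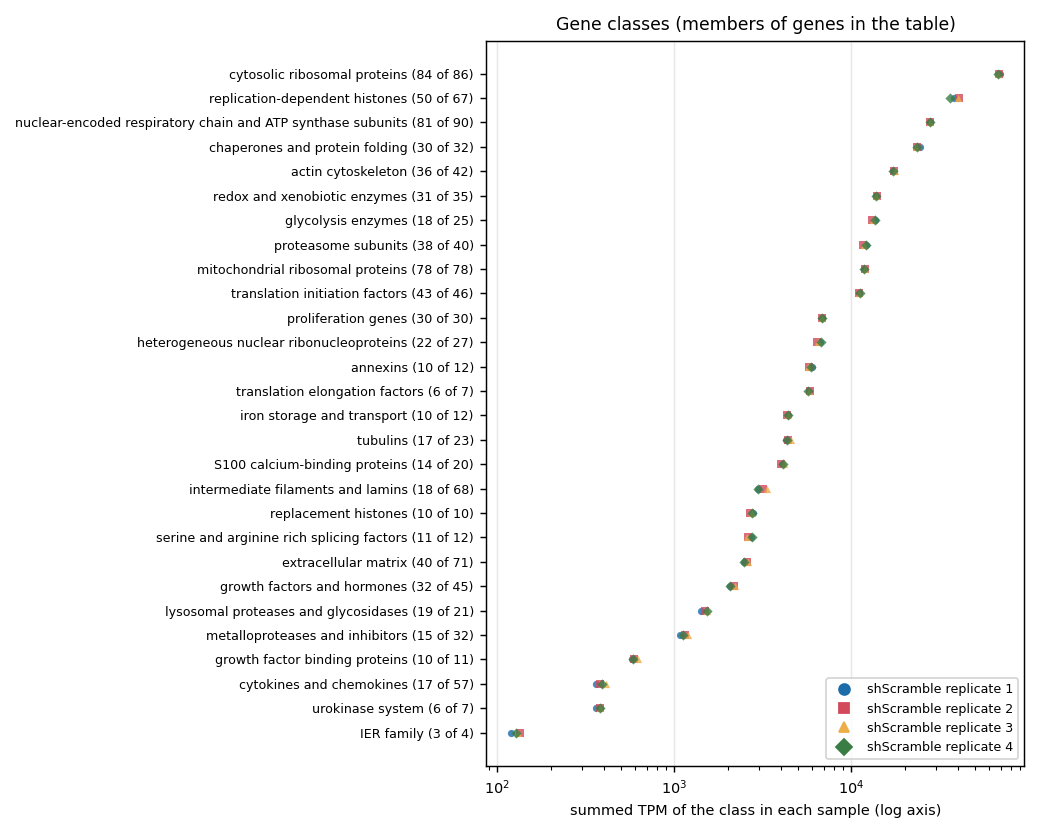
Summed TPM of 28 gene classes in each of the 4 shScramble samples (log axis), with the number of genes at a mean TPM of at least 1 and the number in the table after each name. Cytosolic ribosomal proteins lie at 67995 and histones at 38777 on average, and the samples of a class lie close together beside the distance between classes.

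The markers of cell identity were compared with the label first. The epithelial keratins KRT19 and KRT18 stood at 782, 817, 897 and 761 and 489, 475, 489 and 505 TPM, EPCAM at 47.4, 42.4, 46.8 and 48.5 and KRT8 at 22.7, 28.7, 31.6 and 26.4 TPM. KRT8 was thus listed far below its partner KRT18, and the cause was not tested. CDH1, E-cadherin, was under 1 TPM in every sample at 0.593, 0.822, 0.771 and 0.604. All 6 mesenchymal markers were members: VIM, vimentin, at 425, 409, 396 and 421, CDH2, N-cadherin, at 69, 66.1, 64.2 and 70.7, the transcription factors SNAI2, ZEB1 and TWIST1 at 45.6 ± 2.86, 35.1 ± 1.43 and 29.1 ± 2.12, and FN1 at 2.12 ± 0.285 TPM. The cells thus carried high keratin and high vimentin messages with little E-cadherin message.

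Among the prostate markers the luminal set was uneven. HOXB13, the homeobox factor of the prostate lineage, stood at 447, 448, 456 and 422 TPM, and SLC45A3 and ACP3 at 10.8 ± 2.78 and 1.97 ± 0.461. The kallikreins KLK3 and KLK2 and the membrane antigen FOLH1 were at 0, and TMPRSS2 was at 0.0704. If counts were independent, 0 would allow a mean of up to 0.0278, 0.0201 and 0.0337 TPM for KLK3, KLK2 and FOLH1 (3 counts over the 4 samples). Reads of a pair were counted singly, so these limits may be too low. Of the basal markers, KRT15 stood at 10.9, 10.5, 10.9 and 11.1 TPM, TP63 and KRT5 at 0.0213 and 0.0185, and KRT14 at 0. With canonical lengths KRT15 was at 26.2 TPM.

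Markers of other lineages were low. Of the 44 cell type markers reported, 12 had no count, which for independent counts allows means of up to 0.010 to 0.0588 TPM. These were KLK2, KLK3, FOLH1, KRT14, the neuroendocrine genes CHGA, INSM1 and NCAM1, the immune genes CD68 and CD3E, the endothelial genes CDH5 and VWF, and the fibroblast gene DCN. Those of these 4 lineages that did reach 1 TPM were SYP (1.33 ± 0.105), LYZ (3.48 ± 1.25), KDR (14.3 ± 1.04), PECAM1 (4.87 ± 0.353), PDGFRA (3.84 ± 0.334) and COL3A1 (2.13 ± 0.259). PTPRC, the pan-leukocyte antigen CD45, stood at 0.0291 and COL1A1 at 0.0686 TPM. CTNNA1, which encodes the adhesion protein alpha-catenin, stood at 0.975, 0.843, 0.773 and 0.865 TPM.

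Of 503 listed transcription factors and chromatin-architecture genes, 308 were members, 170 of them at 10 TPM or above and 29 at 100 or above. Their median among members was 11.9 TPM against 24.2 for all members, and the whole list held 1.17% of TPM. The highest was HMGN2, a nucleosome-binding protein, at 591, 597, 578 and 577 TPM. HIF1A is the oxygen-regulated factor whose activity is set largely at the protein level. It was the highest sequence-specific factor of the list at 522, 501, 492 and 506 TPM, in every sample above HOXB13. With canonical lengths HMGN1 (502) stood above HMGN2 (439), and ATF4 (435) above HIF1A (383). ATF4, the effector of the integrated stress response, stood at 414, 420.2, 430.00 and 429 TPM, overlapping with HOXB13. Its target DDIT3 was at 118, 113, 129 and 119.

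ID1, an inhibitor of bHLH factors, ranged widely at 294, 401, 349.6 and 246 TPM, with replicate 2 highest and replicate 4 lowest. MYC, the growth-promoting bHLH factor, was at 158, 185, 171 and 159 and its partner MAX at 52.7 ± 3.16 TPM. USF1, another E-box factor, stood at 205, 191, 206 and 216 TPM. E2F1 and its partner TFDP1, which drive entry into S phase, were at 129, 167, 162 and 146 and 179, 183, 186 and 191 TPM, and MYBL2 at 89.9, 107, 109 and 101.

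By family, all 13 E2F, DP and MYB genes were members, 28 of 34 in the AP-1 and ATF group, and 26 of 47 nuclear receptors. PPARG, the lipid-sensing receptor, led the nuclear receptors at 204, 192, 193 and 203 TPM, followed by NR1D2 (106), ESRRA (84.2), NR2F1 (56.6) and NR2F6 (47.6). The glucocorticoid receptor NR3C1 was at 44.9 ± 0.582 TPM. FOXA1, a pioneer factor of the prostate, stood at 66.7, 71.2, 68.1 and 72 and FOXA2 at 33.6, 36.3, 38.5 and 32.9 TPM among 18 forkhead members of 46. Of 39 HOX genes 15 were members, and after HOXB13 came HOXA13 (30.5), HOXA11 (19.9), HOXA9 (17) and HOXD13 (12.4), so the posterior paralogue groups led. SOX genes had 6 members of 19, of which only SOX4 (35.9 ± 2.73) exceeded 10 TPM, with SOX9 at 6.12 ± 0.735 and SOX2 at 3.73 ± 0.655.

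The HIPPO effectors WWTR1 (TAZ) and YAP1 stood at 112, 101, 106 and 116 and 105, 92.6, 98.8 and 105 TPM, with TEAD1 (40.8) and TEAD4 (27.4) among their DNA-binding partners. JUN, of AP-1, was at 108, 113, 113 and 91.4 TPM. NFKB1 was at 55.4 ± 1.45 and RELA at 5.18 ± 0.505 TPM. Among ETS factors ETV4 (54.2), ETS2 (51.7) and ELF1 (46.5) led, and among KLF and SP factors SP3 (94.4), KLF4 (54.3) and KLF5 (53.1). GATA and RUNX genes were low apart from the shared cofactor CBFB (199 ± 8.04): GATA6 was at 6.28 ± 1.18, RUNX1 at 2.04 ± 0.164, and GATA2 and GATA3 under 1. The grainyhead epithelial factors GRHL2 and GRHL3 stood at 0.0628 and 0.0434. The architectural protein HMGA2, common in fetal and mesenchymal cells, was at 43.4 ± 1.32 TPM.

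Of 440 listed surface proteins, 297 were members, 187 at 10 TPM or above and 48 at 100 or above, with a median of 16.9 TPM among members and 2.07% of TPM in all. TFRC, which imports transferrin-bound iron, led at 1293, 1193, 1185 and 1241 TPM. The complement regulators CD59 and CD55 stood at 1118, 1032, 1031 and 1102 and 402, 392, 401 and 419 TPM, and CD46 at 137 ± 7.29. With canonical lengths CD59 stood at 406, and TFRC (1121) stood below CD63 (1398). CD63, a tetraspanin of late endosomes and exosomes, was at 978, 904, 919 and 946 TPM. Further tetraspanins were TSPAN15 (392), CD151 (332) and TSPAN8 (303).

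Adhesion was dominated by ITGB1, the shared beta-1 integrin chain, at 812, 760.3, 753 and 765 TPM. Of 26 integrin genes 12 were members. The alpha chains ITGA6 (219), ITGA2 (162), ITGAV (117) and ITGA3 (61.7), which pair with beta-1 to bind laminin, collagen and other matrix proteins, followed, and ITGB5 stood at 79.5 ± 2.68. CDH11, the cadherin typical of osteoblasts and mesenchyme, led the cadherins at 263, 265, 256 and 266 TPM, ahead of DSG2 (75.2), CDH2 (67.5) and DSC3 (40.7). ALCAM stood at 324, 301, 299.99 and 304, CLDN4, a tight junction claudin, at 231, 259, 254 and 223, and SDC1, a heparan sulfate proteoglycan, at 501, 569.6, 563 and 482 TPM. PODXL, an anti-adhesive sialomucin, was at 35.5, 39.7, 42 and 42. CD44, a hyaluronan receptor that many cell lines express highly, was listed at only 16.7, 17.5, 19 and 21.5 TPM, and the cause was not tested.

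Receptors for growth signals were uneven. MET, the receptor of hepatocyte growth factor, led the receptor tyrosine kinases at 434, 423, 422 and 431 TPM, more than 5 times the level of EPHA2 (77.9 ± 5.91). EGFR stood at 20.2, 21.9, 20.6 and 23.1, AXL at 13.3 ± 1.74 and ERBB2 at 2.88, 3.28, 2.88 and 3.46 TPM. KIT, FLT3 and FLT4 had no count. TNFRSF12A, the TWEAK receptor, stood at 480.3, 509.99, 531 and 488 TPM, and the TRAIL receptors TNFRSF10A and TNFRSF10B at 124 ± 3.31 and 108 ± 5.59. Among G protein-coupled receptors, F2RL1 and F2R, receptors activated by protease cleavage, were at 454, 445, 433 and 457 and 178, 181, 169.7 and 184 TPM, and LPAR1, a lysophosphatidic acid receptor, at 283, 274, 284 and 293. FZD8 and FZD6 led the Wnt receptors at 115 ± 14.6 and 99.5 ± 5.84 TPM, and TGFBR2 was at 80.1 ± 3.25.

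Among transporters, the glutamine and neutral amino acid carriers SLC38A2 and SLC38A1 were at 905, 854, 817 and 906 and 437, 428, 424 and 439.5 TPM. SLC16A1 (MCT1) and SLC16A3 (MCT4), which carry lactate, were at 421, 385, 399 and 412 and 118 ± 13.9 TPM. SLC3A2, the heavy chain of amino acid exchangers, was at 232 ± 16.7, the cystine carrier SLC7A11 at 84.7 ± 6.33, and the glucose carrier SLC2A1 (GLUT1) at 62.2 ± 4.78. Of 14 prostate cancer antigens 8 were members, led by STEAP1 at 83.4, 67.5, 78.2 and 82.4 TPM, and PSCA stood at 0.561. The MHC class I light chain B2M was at 219 ± 9.15 and HLA-E at 34.3 ± 8.17 TPM. With the canonical length B2M stood at 821 TPM.

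**Figure D3:**
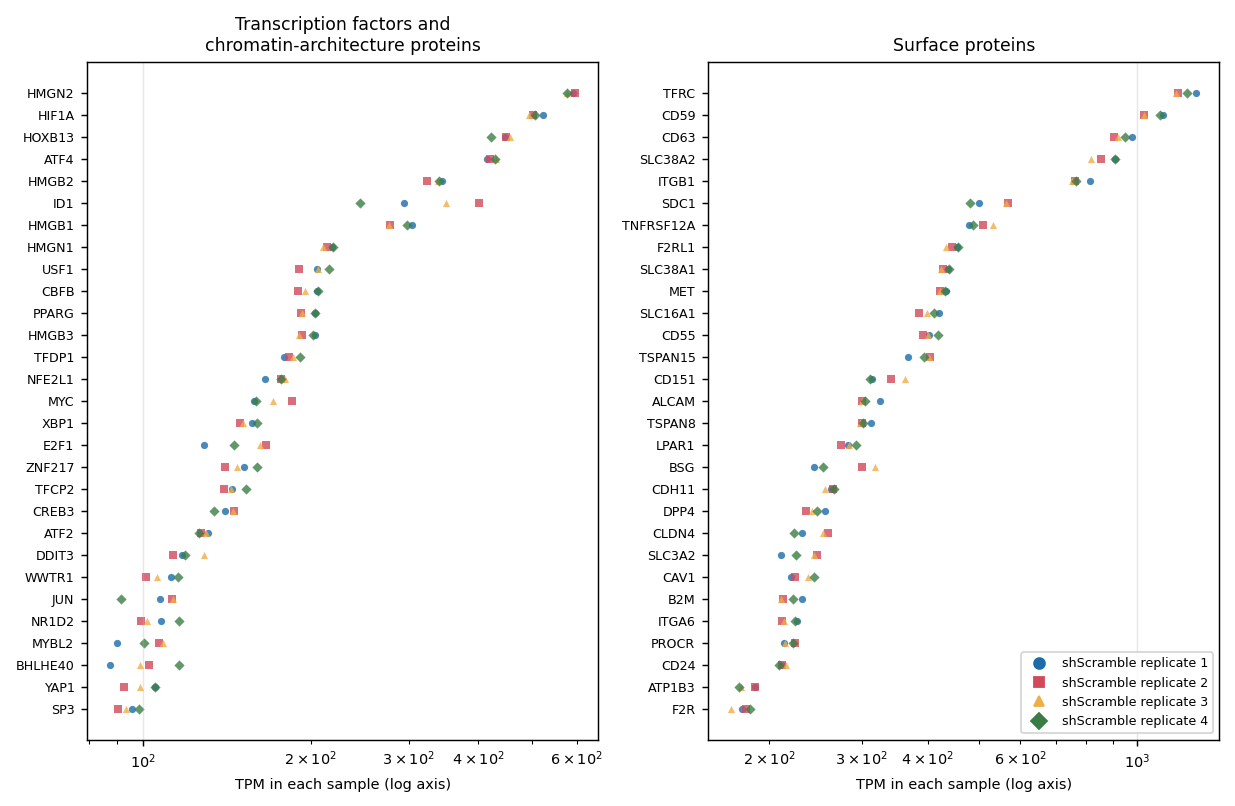
TPM of 29 of the 30 highest listed transcription factors and chromatin-architecture genes (left) and of 29 of the 30 highest surface proteins (right) in each of the 4 shScramble samples, on log axes. HMGN2, HIF1A, HOXB13 and ATF4 lead on the left and TFRC, CD59 and CD63 on the right. ID1 has the widest scatter of those shown.

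The listed growth factors and hormones were led by DKK1, an inhibitor of Wnt signalling known from bone metastasis, at 1408, 1446, 1488 and 1389 TPM. It was the only gene of that list above 1000. The next of that list were STC2 (130.02), AREG (100.4), VEGFC (97.2) and GDF15 (82.9). IGFBP6, which binds insulin-like growth factor II, stood at 294, 320.5, 344 and 306 TPM. COL5A2 and LAMB1, chains of collagen V and laminin, led 40 matrix members of 71 at 664, 656, 648 and 663 and 412, 413, 418 and 424 TPM, followed by HAPLN1 (262), COL13A1 (134) and LAMB3 (133). Of the urokinase system, PLAU was at 208, 209, 213 and 212 and its receptor PLAUR at 32, 38.6, 39.8 and 38.9 TPM. The protease inhibitor TIMP1 was at 327, 369, 397 and 363 and MMP14, the membrane-bound metalloprotease, at 67.4 ± 4.91. MMP1 was at 42 ± 3.71, while the gelatinases MMP9 and MMP2 stood at 0.287 and 0. Of 57 cytokines and chemokines 17 were members. IL18 led at 154, 166, 159.7 and 167 TPM, followed by CCL26 (73.1), LIF (54), CXCL8 (39.9) and IL1B (18.1).

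For the immediate early response family that the study examines, IER2 stood at 82.5, 90.2, 89.3 and 90.7 TPM, IER5 at 30.8, 33.7, 34.2 and 32.2 and IER5L at 5.61, 9.61, 8.20 and 4.72. The values of these genes do not overlap. IER5L was in the lowest band of members, and its values differed by about 2 times between replicates 4 and 2. IER3 was listed at 0.706 TPM. Of the further genes named by the study, PTGES3, an HSP90 cochaperone, was at 228, 219, 215 and 238, RCC2, a regulator of chromosome condensation and small GTPases, at 191, 208, 199.7 and 207, FSCN1, the actin bundler fascin, at 56, 76, 79.3 and 54.9 and ARHGEF1, a guanine nucleotide exchange factor of small GTPases, at 14.4, 16, 17.4 and 14.7 TPM.

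The spread among the 4 replicates was small and shrank with level. The median CV of the 11883 members was 6.49% (quartiles 3.89% and 11.6%). It was 13.2% for members between 1 and 10 TPM, 5.61% between 10 and 100, 3.61% between 100 and 1000, and 3.23% from 1000. A CV over 20% was found in 1179 members, of which 1012 lay under 10 TPM, and one over 50% in 90, of which 89 did. The edgeR common biological CV, which removes the counting noise expected of independent counts, was 6.78% over 15352 genes. Reads of a pair were counted singly and are not independent, so part of the counting noise may remain in it. Ribosomal proteins had a median CV of 3.39%, chaperones of 2.76%, histones of 8.50%, transcription factors of 9.33% and surface proteins of 7.50%. The level of these groups differs, and their spread was not compared at equal level.

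The steadiest genes of the 8205 at 10 TPM or above had a CV under 0.4%. PSMD8, of the proteasome lid, stood at 191, 189, 190.2 and 190.2 TPM. The others were SAV1, of the HIPPO pathway, at 26.3 ± 0.0871, GRPEL1, a mitochondrial import cochaperone, at 245 ± 0.832, PRDX6 at 1956 ± 7.29, and TRMT10C, of mitochondrial RNase P, at 246 ± 0.957 TPM.

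The least steady gene was HBB, haemoglobin beta, at 119.7, 7.75, 82.4 and 15.7 TPM, from 770, 54, 612 and 104 counts. The alpha chains HBA2 and HBA1 stood at 94.8, 43.5, 63.8 and 39 and 18.2, 6.08, 7.99 and 11.3 TPM. All 3 were highest in replicate 1. Other genes of red blood cells were at or near 0: ALAS2 stood at 0.201, CA1 at 0.0973, SLC4A1 at 0.0323 and HEMGN at 0.0332 TPM, and AHSP, HBD and HBG1 had no count. Of the list of 12 red blood cell genes, chosen after the haemoglobin values were seen, only those 3 reached 1 TPM. The total RNA kit that the study's methods name is a Ribo-Zero Globin kit, while the labels name an mRNA kit. Neither the source of the haemoglobin messages nor the part of the kit in their level and spread was tested.

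MX1, IFITM1 and IFI27, which interferon induces, were also among the 12 least steady genes, at 16.3, 6.93, 10.6 and 7.32, 41.1, 15, 27 and 25.3 and 14.1, 5.92, 11.6 and 14.3 TPM. In a list of 20 interferon-stimulated genes, chosen after those values were seen, 19 were members, and 13 of them were highest in replicate 1 and 13 lowest in replicate 2. Over all members the shares were 23.0% highest in replicate 1 and 23.0% lowest in replicate 2. Because the list was chosen after values of these same samples were seen, the difference is not a test. The summed level of the list was 1899, 1607, 1938 and 1633 TPM, carried mostly by BST2 (623 ± 47.6) and ISG15 (373, 378, 457 and 270.2). MRPL23, a mitochondrial ribosomal protein, stood apart in 1 sample at 19.7, 44, 20.5 and 18.4 TPM. The remaining genes of the 10 with the largest CV were MRPL12, LENG1, RAB5IF and BAD, at 8.38, 18.3, 15.1 and 7.43, 14, 16, 7.72 and 6.91, 11.5, 19.9, 13.4 and 7.38 and 19.5, 26.7, 32.3 and 12 TPM. These genes share 68.2%, 33.8%, 51.5% and 23.7% of their exon bases with another gene, where reads were not assigned. Their lowest counts in a single sample were 43, 60, 63 and 115.

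GC content moved with the differences between replicates. Members were split into 10 groups by the GC content of the canonical transcript. In the group of highest GC (61.5% to 76%) the median deviation of log2 TPM from the gene's mean was -0.14 in replicate 1, 0.13 in replicate 2, 0.18 in replicate 3 and -0.15 in replicate 4. In the group of lowest GC (30.7% to 38.1%) the signs were opposite, at 0.051, -0.039, -0.047 and 0.037. The median CV was 5.52% in the lowest group, 4.78% in the third and 15.8% in the highest. Of the 25 genes with the largest CV at 10 TPM or above, 24 had a GC content above the member median of 47.4%, and in 15 of them replicates 2 and 3 were both above replicates 1 and 4, as in 23.4% of all members. Levels moved with GC as well: the median member of the lowest GC group stood at 36.7 TPM and that of the highest at 10.2. The part of library preparation in this was not tested. The column of replicate 3 carries the name Cont2 where those of the other replicates carry Cont3, and replicate 3 lay with replicate 2 here.

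The threshold of 1 TPM is not a boundary in the cells. Just inside it were CYB5D1 (1.00), PROC (1.00) and ZNF625 (1.00), and just outside were SLC25A45 at 0.999, NANOS3 at 0.997 and REP15 at 0.996 TPM. PROC had single values of 0.881, 0.746, 0.954 and 1.42 and NANOS3 of 0.371, 0.856, 0.964 and 1.80, so samples of either gene lay on both sides of 1. In 11452 of the 11883 members every sample was at 1 TPM or above.

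Overlapping gene models limit part of the list. Reads in exon bases that belong to more than 1 gene were not assigned, and 5587 members share at least 1 exon base with another gene, 197 of them more than 50%. Of the 895 protein-coding genes that share more than 50%, 435 had no count. MIF, a cytokine-like tautomerase that cell lines usually express highly, was listed at 0 with 61.9% of its exon bases shared. A level of 0 in such a gene cannot be read as absence.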

How the data were processed

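RNA from the 4 shScramble PC3 samples was sequenced as paired-end 100-base reads. Per the labels and the study's methods, the authors aligned the reads to hg38 with STAR 2.7.5c in 2 passes, removed PCR duplicates with SAMtools 1.15 and counted reads in exons per gene with featureCounts 2.0.3. The file header gives primary alignments, chimeric pairs left out, no strand setting and no assignment of reads in exons of more than 1 gene, so overlapping, antisense and near-identical genes are uncertain. Removal of duplicates can lower the counts of abundant short genes. The labels name a stranded mRNA kit and the methods a total RNA kit (Ribo-Zero Globin).

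The deposited values are raw counts for 58051 genes with their exon length. Gene coordinates are those of the file (hg38), and 19616 of the 19629 protein-coding genes lay at an overlapping place in GENCODE v44, which gave symbols and types to 56948 genes. The exceptions are 13 genes of the mitochondrial genome. TPM was computed per sample over all genes from the count and the length column. Spread was given as the CV of TPM and as the common biological CV of edgeR 4.0.16 (filterByExpr, TMM, intercept only), with DESeq2 1.42.0 as an alternative, both run in R 4.3.3. Tables were made with Python 3.11.15, pandas 2.3.3 and SciPy 1.17.1. Both measures of spread were also run on simulated counts. Those counts were drawn independently, so the check does not cover reads of a pair that were counted singly. GC content was taken from the canonical transcript, and log2 values used a pseudocount of 0.01.

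The genes named are the 20 highest, the up to 5 highest of each gene list, all cell type markers, the genes the study names, the 10 largest and 5 smallest CVs from 10 TPM and the 3 genes on each side of 1 TPM. Some further members of the lists are given for their function, and some genes that the rule takes are not reported here. The members, lists and rules were chosen with earlier results of these data known, and lists of initiation factors, integrins and prostate antigens were corrected afterwards for genes that did not belong. No test between groups was made. Alternatives were the length, the genes in the total, the filter, the scaling and each replicate left out.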

Additional observations from a re-analysis of the deposited data

Results flagged for a closer look

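Of 445 values examined in the 4 samples (the named genes, the summed lists and the share of the top 100), 14 had 1 sample far from the other 3, with a gap to the nearest of them that passed Dixon's critical value at 95%. This is 3.15%, and chance flags about 1 in 20 where values are normally spread. A gene with a count in 1 sample alone, as KRT5 and TP63, always passes, so that rate does not apply to it. The odd sample was replicate 1 in 3 cases, replicate 2 in 5, replicate 3 in 3 and replicate 4 in 3.

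The summed level of the urokinase system list was lowest in replicate 1 at 361 TPM, with the others at 381 to 382. The summed level of the KLF and SP list was highest in replicate 4 at 403 TPM, with the others at 387 to 389. The summed level of the NF-kB, NFAT and REL list was highest in replicate 2 at 142 TPM, with the others at 134 to 135. The summed level of the SMAD list was highest in replicate 4 at 105 TPM, with the others at 96.1 to 96.9. ATP1B1 was lowest in replicate 2 at 109 TPM, with the others at 116 to 117. CLOCK was lowest in replicate 3 at 25.5 TPM, with the others at 28.1 to 28.3. ETS1 was highest in replicate 4 at 41.8 TPM, with the others at 37.9 to 38.3. KRT5 had a count in replicate 3 alone, at 0.0740 TPM. LTBP1 was lowest in replicate 2 at 177 TPM, with the others at 189 to 191. MRPL23 was highest in replicate 2 at 44 TPM, with the others at 18.4 to 20.5. PLAUR was lowest in replicate 1 at 32 TPM, with the others at 38.6 to 39.8. PSMA7 was highest in replicate 1 at 1333 TPM, with the others at 1289.8 to 1294. TP63 had a count in replicate 3 alone, at 0.0852 TPM. TRMT10C was lowest in replicate 2 at 244 TPM, with the others at 246.2 to 246.4.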

How the results depend on the processing

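The number of protein-coding genes at a mean TPM of 1 or above stayed between 10973 (threshold of 2) and 12706 (threshold of 0.5) under all alternatives. It was 11584 with canonical lengths, 11986 with protein-coding genes alone in the total, 11452 when every sample had to reach 1, 11987 with unshared exon bases alone (an alternative chosen after seeing the data) and 11867 to 11906 with each replicate left out. The share of the 100 most abundant genes, 16.9% as reported, was 18.5% with protein-coding genes alone in the total, 20.7% with canonical lengths, 13.7% of counts without length (CPM), 16.7% with unshared bases, and 16.9% to 17.0% with each replicate left out (lowest 16.9%, highest 17%). The median CV, 6.49% as reported, was 6.33% to 6.53% under the other lengths, totals and scalings, 5.01% for genes from 10 TPM, 9.47% for genes with any count, 5.58% with the GC trend of each sample removed (chosen after seeing the data), and 5.79% to 6.37% with each replicate left out. The common biological CV, 6.78% as reported, was 6.52% to 7.02% with other genes or size factors, 4.90% as the DESeq2 median gene-wise value, and 6.57% to 7.17% with each replicate left out.

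Of 393 genes taken by the naming rule, 145 had a mean TPM that moved by over 1.5 times with canonical lengths and 10 with unshared bases, as did 8 and 0 of 75 summed lists. The lists were cytosolic ribosomal proteins, the CEBP, KLF and SP, and HOX factors, the TGF-beta, BMP, Notch and Wnt receptors, and the luminal, basal and endothelial markers. With 1 replicate left out, the means of 7 reported genes moved by over 1.5 times. HBB fell from 56.4 to 35.3 TPM without replicate 1, and the other 6 had means under 1 TPM: IER3 (0.442 without replicate 2), PTPRC (0.0135 without replicate 3), TMPRSS2 and CHGB (0.0357 and 0.0233 without replicate 4), and KRT5 and TP63 (0 without replicate 3). No paired analysis was possible because only 1 condition is described and no groups are compared. Genes from 1 to 10 TPM rest on the fewest counts and had the widest spread (median CV 13.2%), and their median GC content was also the highest of the 4 level bands (51.5%). The parts of depth and GC in this spread were not tested.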

Other observations

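Among genes that do not code for proteins, RN7SL2, the RNA of the signal recognition particle, was listed at 5843 ± 441 TPM, with values of 6458, 5515, 5530.3 and 5868 in replicates 1 to 4. Its values overlapped with those of TMSB10, above it in replicates 1 and 4 and below it in replicates 2 and 3. MALAT1, a nuclear long noncoding RNA, stood at 1433, 1226, 1208 and 1370.4 TPM and NORAD, a long noncoding RNA that binds Pumilio proteins, at 549.8, 535, 529 and 548 TPM. The small Cajal body RNAs SCARNA7 and SCARNA21 stood at 2039 ± 109.7 and 1330.1 ± 71.2 TPM and the small nucleolar RNA SNORA73B at 863 ± 103. RN7SL2, MALAT1, SCARNA7 and SNORA73B were each highest in replicate 1. Short RNAs have few positions for a read of 100 bases, and a level per length is uncertain for them. These genes were chosen after their values were seen.

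Over the autosomes and chromosome X, the share of protein-coding genes that were members ran from 50.3% (424 of 843 on chromosome X) to 67.1% (709 of 1056 on chromosome 3). The median level of members was highest on chromosome 20, at 38.3 TPM over 321 members, and lowest on chromosome 19, at 14.3 TPM over 825 members. Chromosome 6, with 616 members, held 7.14% of all TPM, the largest share after that of chromosome 1 (11.5% from 1238 members), and 1027 of the 19629 protein-coding genes lie on it. The histone clusters on chromosome 6 are among these genes.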
